A study of Homo sapiens with 8 samples.

Results

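NUP98-binding regions lay more densely in the outer 5 Mb of the human autosomes than in the rest of them in embryonic stem cells (ESCs). In neural progenitor cells (NeuPCs) they did so by a smaller margin, and 5 to 15 Mb from the ends was about as dense. The regions described here are those of the ESC and NeuPC lists on chromosomes 1 to 22 that lay within 5 Mb of a chromosome end in hg19. The rule used position alone, and neither score nor length. It took in 259 of the 2355 autosomal ESC regions and 257 of the 3027 autosomal NeuPC regions, 516 in all out of the 5704 regions of both whole lists. There were 39 such ends, 17 on short arms and 22 on long arms, because the short arms of chromosomes 13, 14, 15, 21 and 22 held no region within 5 Mb of their tips. ESC regions off these chromosomes (144) and NeuPC regions off them (178) were left aside.

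The study asked where NUP98 contacts chromatin as human cells differentiate, and used ChIP-Seq, in which chromatin is fixed, sheared, pulled down with an antibody and sequenced. The ESCs were HUES6, an established human embryonic stem cell line, and the NeuPCs were derived from HUES6 in culture through embryoid bodies and rosettes, so both lists come from 1 line. Both were fixed in 1% formaldehyde for 10 min and pulled down with NUP98 antibody 2292, and each had a control pull-down with normal rabbit IgG. There was 1 NUP98 library per cell type, so nothing below has a replicate check. The intervals are 95% intervals for counting error only, and differences between ESC and NeuPC compare 2 lists and not 2 cell types. The lists hold no expression values, and the cell type labels were not checked against markers here. The paper stained its NeuPCs for the progenitor markers Nestin and Sox2. Reads were not analysed, and how far depth and calling threshold set the size of each list cannot be told apart from binding. Most comparisons are therefore made within a list.

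NUP98 is a nucleoporin with phenylalanine-glycine repeats that sits at nuclear pores, lines the transport channel and also moves into the nuclear interior, where it can contact chromatin. Human chromosomes end in telomeric repeats, followed inward by subtelomeres, stretches rich in segmental duplications that several chromosomes share. Beyond these the outer bands of many arms are rich in genes and in G and C. An end of the assembled chromosome is where the reference stops, and the first stretch of many reference ends is unresolved sequence in which no read can be placed.

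In ESCs, 11.0% of the autosomal regions (95% exact binomial interval 9.76% to 12.3%) lay near a chromosome end, although these ends made up 6.97% of the length. Placement in proportion to length would put 164 regions there, and the list held 94.7 more than that. The length used here kept long stretches that held no region, and the ratio without them is given below. The density was 1.33 regions per Mb near the ends (exact Poisson interval 1.17 to 1.50) and 0.806 per Mb elsewhere (0.772 to 0.841). The ratio of the densities was 1.65 (1.44 to 1.88). In 20 of the 22 chromosomes the ends were denser than the rest of the same chromosome, with chromosomes 12 and 17 as the exceptions. When each chromosome kept its own number of regions, 170 were expected near the ends, and the observed number was 1.52 times that.

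In NeuPCs, 8.49% of the autosomal regions (7.52% to 9.54%) lay near an end, where length alone would put 211, an excess of 45.9 regions. The density was 1.32 per Mb (1.16 to 1.49) near the ends and 1.07 per Mb (1.03 to 1.11) elsewhere. The ratio was 1.24 (1.08 to 1.41), and 15 of the 22 chromosomes were denser at their ends. Within chromosomes, 217 were expected and the observed number was 1.18 times that. The NeuPC ratio depended on how empty stretches were counted. Leaving out stretches of over 2.5 Mb with no region from the length gave 1.10 (0.967 to 1.25), an interval that includes 1, while the ESC ratio was then 1.47 (1.29 to 1.67).

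The 2 lists reached nearly the same density at the ends and differed away from them. ESC density over NeuPC density was 1.01 near the ends and 0.757 elsewhere. The share of the list near the ends was 2.51 percentage points higher in ESCs than in NeuPCs (Newcombe interval 0.915 to 4.14). That interval included 0 among regions within 2 Mb of an end, where the difference was 1.02 points (-0.0762 to 2.16), and among the top-scoring 50% of each list, where it was 1.79 points (-0.552 to 4.20). Short and long arm ends both carried them. ESCs had 108 regions at short arm ends (1.27 per Mb, 1.04 to 1.53) and 151 at long arm ends (1.37 per Mb, 1.16 to 1.61). NeuPCs had 114 (1.34 per Mb, 1.11 to 1.61) and 143 (1.30 per Mb, 1.10 to 1.53), and within each list the intervals of the arms overlapped.

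**Figure D1:**
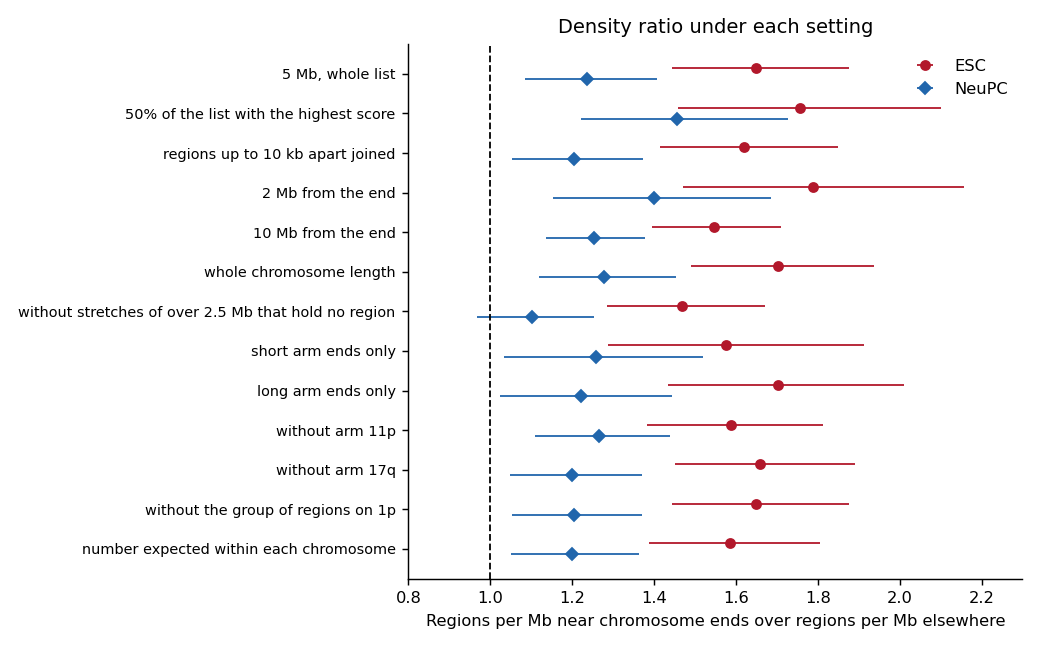
Ratio of regions per Mb near chromosome ends to regions per Mb elsewhere, for ESCs (circles) and NeuPCs (diamonds), under each way of counting, with 95% intervals for counting error. The dashed line marks a ratio of 1. Every ESC interval lies above 1, and 1 NeuPC interval, without long empty stretches, reaches below it.

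The ESC excess was greatest in the last Mb of the chromosomes. Summed over the 39 ends, ESCs had 72 regions in the outermost Mb, 43 in the next, then 60, 43 and 41. The outermost Mb held 1.85 regions per Mb (1.44 to 2.33), which was 2.29 times the density of the list beyond 5 Mb (1.79 to 2.88). Density did not fall smoothly, since the step from 2 to 3 Mb held 1.54 per Mb and those on either side 1.10 per Mb each. Further in, single steps still reached 1.33 per Mb (5 to 6 Mb) and 1.26 per Mb (6 to 7 Mb). Over wider steps the ESC density was 1.09 per Mb (212 regions, 0.946 to 1.24) at 5 to 10 Mb, 0.928 per Mb (181 regions) at 10 to 15 Mb and 0.969 per Mb (189 regions) at 15 to 20 Mb.

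NeuPC regions showed a flatter profile. There were 59 in the outermost Mb, then 58, 53, 44 and 43. The outermost Mb held 1.51 per Mb (1.15 to 1.95), 1.42 times the density beyond 5 Mb. Further in, the NeuPC list held 1.29 per Mb (252 regions, 1.14 to 1.46) at 5 to 10 Mb, 1.33 per Mb (260 regions) at 10 to 15 Mb and 1.21 per Mb (235 regions) at 15 to 20 Mb. The 5 Mb next to the ends thus had nearly the same density in NeuPCs as the 10 Mb inward of them. The single densest step of the first 20 Mb was at 7 to 8 Mb, with 73 regions (1.87 per Mb, 1.47 to 2.35). As shares of their lists, ESCs exceeded NeuPCs by 1.11 points in the outermost Mb (0.273 to 2.00) and by 0.797 points at 2 to 3 Mb (0.0220 to 1.62). In the other steps of the 5 Mb the interval of the difference included 0.

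**Figure D2:**
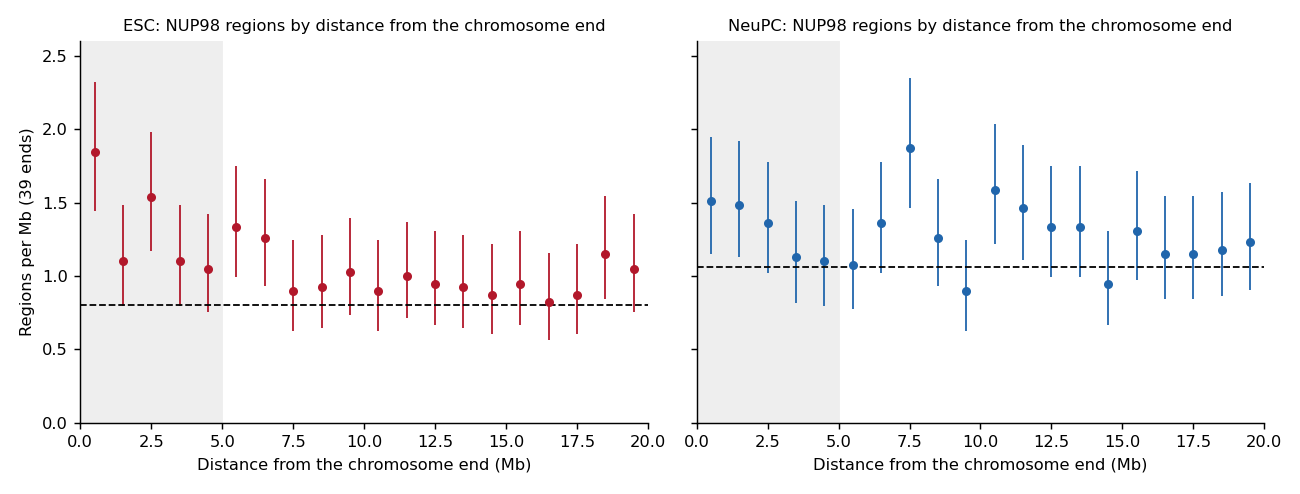
Regions per Mb (vertical axis) in 1 Mb steps of distance from the chromosome end (horizontal axis), summed over 39 ends, for ESCs and NeuPCs, with exact Poisson 95% intervals. The dashed lines give the density of each list beyond 5 Mb and the shaded area the 5 Mb described here: ESCs start at 1.85 per Mb and lie nearer the line beyond 7 Mb, while the NeuPC points stay spread about and above it up to 20 Mb.

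Inside the outermost Mb both lists had their highest density at 0.5 to 0.75 Mb, with 25 regions each (2.56 per Mb). The outer 0.25 Mb held 12 ESC and 7 NeuPC regions (1.23 and 0.718 per Mb), and 0.25 to 0.5 Mb held 12 and 11. At 0.75 to 1 Mb there were 23 ESC and 16 NeuPC regions. Of the NeuPC regions at 0.5 to 0.75 Mb, 7 belonged to 1 compact group on 1p that is described below. The share of the outer 0.25 Mb that reads can reach was not tested. Regions came close to the ends all the same. The outermost ESC region lay on 2p at chr2:17291-17413 (score 50.71), 17290 bp from the tip, and the outermost NeuPC region on 17q at chr17:81180862-81180976 (score 52.46), 14234 bp from the tip. At the limit of the rule, the last ESC region inside lay on 9q at 4.99 Mb from the end (score 54.58) and the first outside on 3q at 5.00 Mb (score 63.2). For NeuPCs these were a region on 9q at 4.99 Mb (score 59.14) and a region on 22q at 5.08 Mb (score 58.14).

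Every one of the 39 ends carried at least 1 region in each list. ESC counts ran from 2 on 12q to 16 on 11p, with a median of 7, a mean of 6.64 and a variance of 8.08. NeuPC counts ran from 1 on 11p to 14 on 17q, with a median of 6, a mean of 6.59 and a variance of 7.83. In 32 ends the ESC density was above that of the rest of the same chromosome, and in 24 the NeuPC density was. With so few regions per end, the Poisson interval cleared the rest of the chromosome in 4 ESC ends (4q, 6p, 11p and 18q) and in 2 NeuPC ends (5q and 17q), and lay below it in 1 NeuPC end (11p) and in no ESC end. Windows away from the ends were not compared in this way, so these counts have no background share beside them. The outermost Mb held a region at 28 ends in ESCs and at 27 in NeuPCs. How often a stretch of 1 Mb elsewhere held any region was not computed, so these counts are not set apart from the rest.

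The rest of the autosomes was cut into 510 windows of 5 Mb for comparison. ESC windows held a median of 4 regions (mean 3.99, maximum 21), and 26 of them held none. At least 8 regions were found in 13 of the 39 ESC ends (33.3%), against 38 of the 510 other windows (7.45%) and 9.29% of all 549 windows. The difference between ends and other windows was 25.9 points (12.9 to 41.7). NeuPC windows held a median of 5 (mean 5.28, maximum 14), and 13 held none. At least 8 regions were found in 14 NeuPC ends (35.9%), against 102 other windows (20.0%) and 21.1% of all windows. The difference was 15.9 points (2.23 to 31.9).

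The lists did not favour the same ends. Across the 39 ends the counts had a Pearson correlation of -0.138 and a Spearman correlation of 0.00201, given as a description because ends are not replicates. ESCs had more regions at 14 ends, NeuPCs at 19, and the counts were equal at 6 (3p, 3q, 9q, 16p, 20q and 22q). By share of the list, ESCs were higher at 23 ends and NeuPCs at 16.

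The end of 11p showed the largest contrast. It is known for its imprinted growth genes, and held the highest ESC count and the lowest NeuPC count of all ends. The 16 ESC regions (counting interval 9.15 to 26.0) gave 3.2 per Mb, 4.21 times the density of the rest of chromosome 11. They were spread over the whole 5 Mb, the outermost 388756 bp and the innermost 4825282 bp from the tip, and 5 of them lay in the outermost Mb. Scores of these regions lay between 50.71 and 117.27, median 54.59, close to the median of all ESC end regions. The single NeuPC region there was chr11:1692552-1692664 at the low score of 50.29, and gave 0.167 times the density of the rest of chromosome 11 in that list. Outside its ends chromosome 11 held 95 ESC and 150 NeuPC regions, and NeuPC regions were the more numerous there on 20 of the 22 chromosomes. ESC regions made up 0.646 percentage points more of their list at this end than NeuPC regions did, the largest difference of any end.

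The end of 4q, whose tip carries the D4Z4 macrosatellite repeats and shares sequence with the tip of 10q, held 12 ESC and 6 NeuPC regions. Of the ESC regions, 9 lay in the outermost Mb, the most of any end, between 203362 and 962690 bp from the tip. The density of this end was 4.30 times that of the rest of chromosome 4 in ESCs and 1.29 times in NeuPCs. Its highest score in ESCs was 88.94, at chr4:190191447-190191586, and 3 of the 9 ESC end regions of at least 200 bp were here. On 10q, ESCs had 5 regions and NeuPCs 2. Reads from sequence shared between tips cannot be assigned to 1 of them without knowing how the authors treated reads with several matches, and its part in these counts was not tested.

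The end of 6p, which carries forkhead genes, held 10 ESC and 4 NeuPC regions, and ESC regions there had a median score of 52.43. It gave the third largest difference in share, 0.292 points. The end of 14q, where the immunoglobulin heavy chain genes lie, held 10 ESC and 5 NeuPC regions. On 18q there were 11 ESC and 6 NeuPC regions, at 2.83 times the density of the rest of chromosome 18 in ESCs and 0.996 times in NeuPCs. These ends with more ESC regions had intervals that overlapped between the lists for 6p, 14q and 18q, and did not overlap for 11p.

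Chromosome 17 was the main case in the other direction. Its long arm end held 14 NeuPC regions (7.65 to 23.5) and 5 ESC regions, and its short arm end 11 NeuPC and 3 ESC regions. Both ends together held 25 NeuPC and 8 ESC regions, at 1.66 and 0.780 times the density of the rest of the chromosome. On 17q the NeuPC scores ran from 52.17 to 153.65, with 3 of the 14 in the outermost Mb. On 17p, 6 of the 11 NeuPC regions and all 3 ESC regions lay in the outermost Mb. For each of the arms of chromosome 17 the Poisson intervals of the lists overlapped. Among the other ends with more NeuPC regions, 2q and 7p each held 9 against 5, 7q and 12p 10 against 7, 8p and 19p 8 against 5, and 9p 6 against 3. The end of 1p held 11 NeuPC and 7 ESC regions, but 7 of the 11 formed the compact group, and without it the count was 4 against 7. NeuPCs then had more regions at 18 ends and ESCs at 15.

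**Figure D3:**
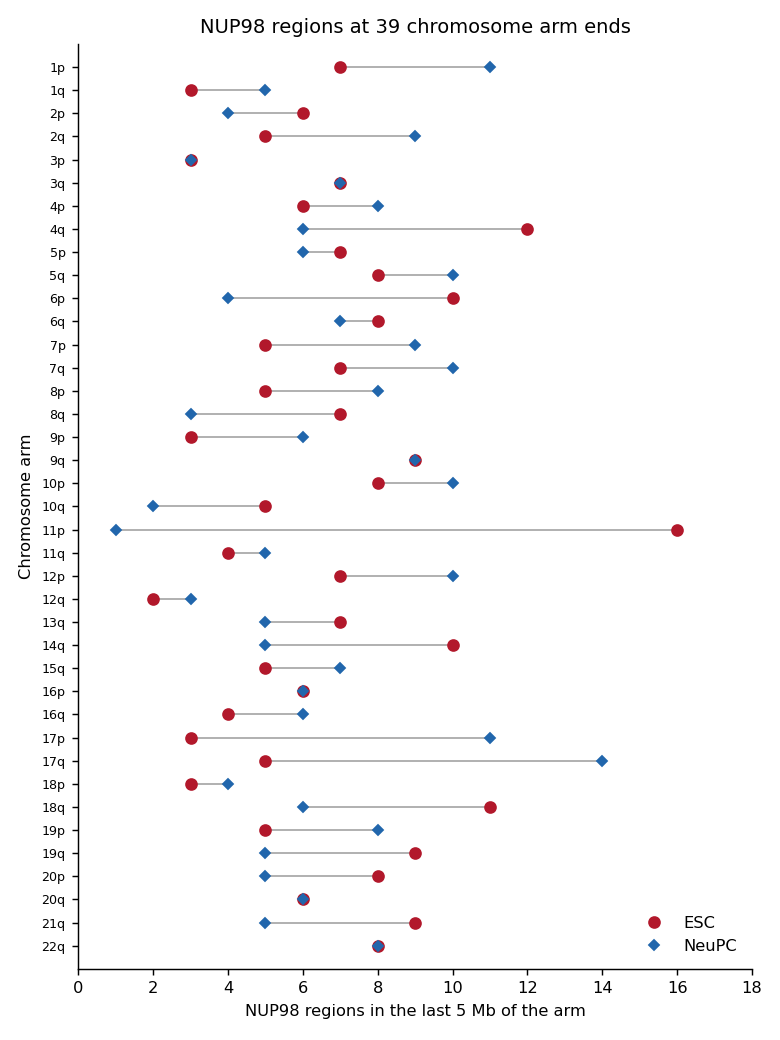
Number of NUP98-binding regions in the outer 5 Mb of each of 39 chromosome arm ends (horizontal axis) for ESCs (circles) and NeuPCs (diamonds), with a line joining the lists. The widest gap is on 11p (16 and 1), followed by 17q (5 and 14) and 17p (3 and 11).

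**Figure D4:**
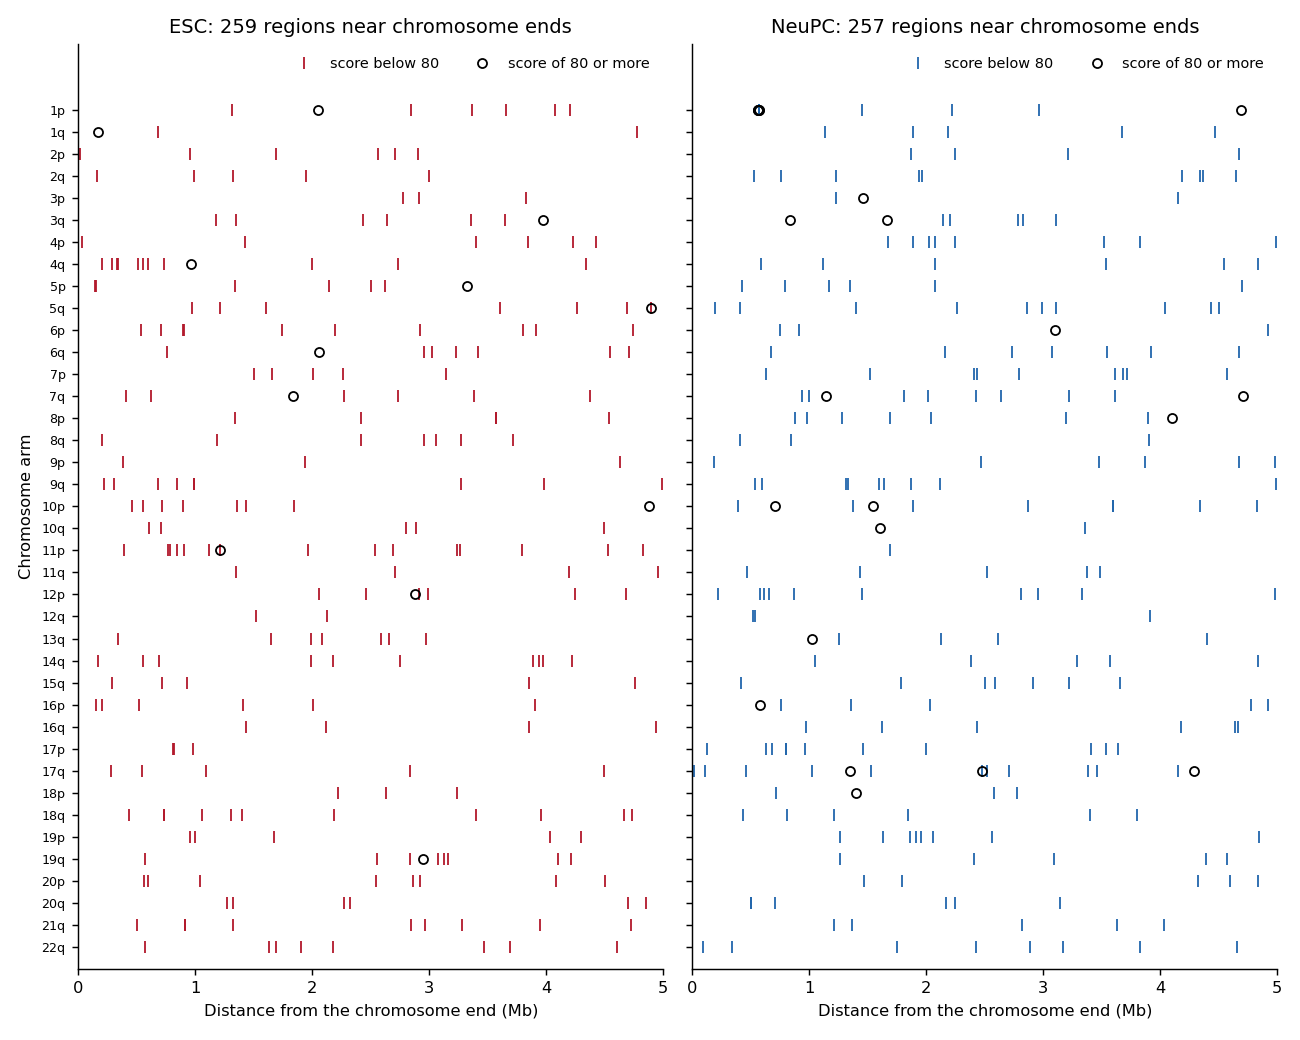
Position of each of the 259 ESC and 257 NeuPC regions by chromosome arm (vertical axis) and distance from the chromosome end in Mb (horizontal axis), with ticks for scores below 80 and circles for scores of 80 or more. ESC regions crowd the outermost Mb of 4q, and the NeuPC circles that fall on each other on 1p are the compact group at 0.5 to 0.75 Mb.

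The score is the value the peak caller gave each region, with no unit stated, and every region of both lists scored at least 50. Scores are compared within a list only. Cutoffs of 60 and 100 were planned, and those of 70 and 80 were added. In ESCs, end regions had a median score of 54.77 (quartiles 52.13 and 60.87) and the other regions 54.31 (51.91 and 59.725). Scores of at least 60 were reached by 71 ESC end regions (27.4%), against 24.2% of the rest and 24.6% of all autosomal ESC regions. The difference between ends and rest was 3.18 points, with an interval from -2.23 to 9.18. At 80 or more there were 12 end regions (4.63%, 2.42% to 7.95%) and 41 others (1.96%, 1.41% to 2.64%), a difference of 2.68 points (0.597 to 6.01). At 100 or more the ends did not stand apart, with 3 (1.16%) against 24 (1.15%), and 1.15% of all autosomal ESC regions. At 70 or more the difference was 2.96 points, with an interval that included 0 (-0.0518 to 7.09). Of these cutoffs, only 80 gave an ESC interval without 0. The highest score near an ESC end was 151.61, whereas the rest of the list reached 3100.

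In NeuPCs, end regions had a median score of 60.34 (57.26 and 65.85) and the others 59.38 (56.83 and 64.41). Scores of at least 60 were reached by 131 NeuPC end regions (51.0%, 44.7% to 57.2%), against 44.0% of the rest and 44.6% of all autosomal NeuPC regions. The difference was 6.97 points (0.608 to 13.3). At 80 or more there were 22 end regions (8.56%) and 102 others (3.68%), a difference of 4.88 points (1.94 to 8.99). At 70 or more the difference was 3.95 points, with an interval that included 0 (-0.114 to 8.97). At 100 or more there were 10 end regions (3.89%, 1.88% to 7.04%) and 23 others (0.830%, 0.527% to 1.24%), with 1.09% of all autosomal NeuPC regions, and a difference of 3.06 points (1.25 to 6.20).

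Part of the NeuPC difference lay in 1 place. Without the group on 1p, 125 of 250 regions (50%) reached 60, and the difference from the rest, 5.99 points, had an interval that included 0 (-0.432 to 12.4). At 80 or more, 17 remained (6.80%), with a difference of 3.12 points (0.492 to 6.99), and at 100 or more 6 (2.40%), with a difference of 1.57 points (0.210 to 4.32). Seen from the other side, 22.6% of the 53 autosomal ESC regions scoring at least 80 (12.3% to 36.2%) lay near an end. Of all autosomal ESC regions, 11.0% did. With the group on 1p counted again, 17.7% of the 124 such NeuPC regions (11.5% to 25.6%) lay near an end, against 8.49% of all autosomal NeuPC regions. That NeuPC share was not computed without the group.

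**Figure D5:**
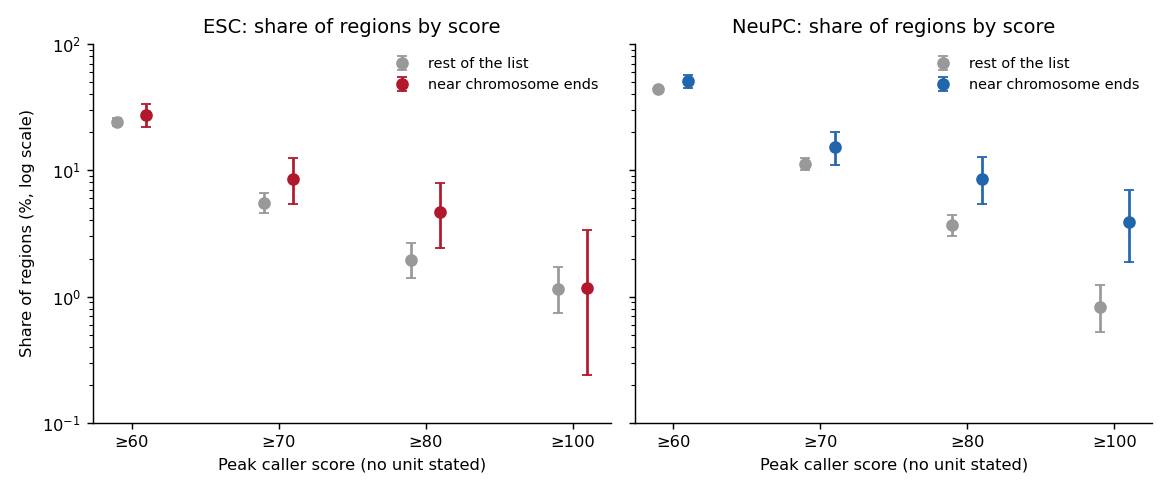
Share of regions (percent, log axis) at or above a peak caller score of 60, 70, 80 and 100, for regions near chromosome ends (coloured) and the rest of the same list (grey), with exact binomial 95% intervals. ESC ends lie above the rest at 80 (4.63% and 1.96%) and level with it at 100. NeuPC ends lie above the rest at 80 (8.56% and 3.68%) and at 100 (3.89% and 0.830%). The cutoffs of 70 and 80 were added to those planned.

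The 12 ESC end regions scoring at least 80 lay on 12 different arms. The highest was chr5:3323706-3324115 on 5p, with a score of 151.61 and a length of 410 bp, which ranked 20 in the autosomal list. Next came chr11:1212795-1212985 on 11p (117.27, rank 25), chr19:56181815-56181885 on 19q (102.62, rank 27), chr5:176018796-176018946 on 5q (98.48, rank 28) and chr6:169060519-169060628 on 6q (98.42, rank 29). The region on 11p had a second ESC region beside it at chr11:1213369-1213562 (53.52).

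In NeuPCs the end regions stood higher in their list. The 22 that scored at least 80 lay on 12 arms, with up to 6 on 1 arm. The highest was chr1:566031-566799 on 1p, with a score of 294.95, rank 2 of the autosomal NeuPC regions. It was followed by chr13:114145108-114145291 on 13q (223.76, rank 3), chr7:157991393-157991683 on 7q (222.06, rank 4), chr17:76902877-76902950 on 17q (153.65, rank 9) and chr1:565018-565425 on 1p (153.41, rank 10). Both regions named on 1p belonged to the compact group there. The region on 7q was 291 bp long and that on 13q 184 bp, while the one on 17q was among the short ones at 74 bp.

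End regions were about as long as the rest. The median length was 122 bp near ESC ends (quartiles 112 and 133.5) and 120.5 bp elsewhere (112 and 127). In NeuPCs it was 122 bp (109 and 132) and 121 bp (110 and 130). Long regions were few. At least 200 bp were covered by 9 ESC end regions (3.47%) and 1.62% of the rest, a difference of 1.85 points (0.0973 to 4.88). In NeuPCs there were 11 (4.28%) against 1.16%, but 4 (1.60%) without the group on 1p, when the difference of 0.445 points had an interval from -0.639 to 2.91. The longest NeuPC end region, chr17:966570-967473 on 17p, spanned 904 bp at the low score of 52.26. In all, end regions covered 32944 bp in ESCs and 35436 bp in NeuPCs.

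Length and score recurred in fixed pairs in both lists, and less often near the ends. The commonest pair in ESCs was 125 bp with a score of 51.15, carried by 64 autosomal regions, 5 of them near an end. In NeuPCs it was 130 bp with 57.48, carried by 58 regions, 1 of them near an end. An exact repeat of length and score elsewhere in the autosomal list was found for 170 ESC end regions (65.6%) and for 81.2% of the rest, a difference of -15.5 points (-21.7 to -9.74). In NeuPCs it was found for 185 end regions (72.0%) and for 79.7% of the rest, a difference of -7.69 points (-13.7 to -2.33). This comparison was added after the values had been seen.

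Neighbouring end regions lay closer together than neighbours elsewhere. The median gap was 406 kb near ESC ends and 779 kb elsewhere, and 404 and 590 kb in NeuPCs. Higher density by itself shortens gaps. End gaps were also taken within 5 Mb stretches and the others along whole chromosomes, so the medians are no separate result. Gaps of at most 10 kb made up 4.55% of those near ESC ends and 2.27% elsewhere, and 4.59% and 1.35% in NeuPCs. Without the compact group on 1p, the NeuPC share was 1.90% (4 of 211 gaps). The 10 such gaps in ESCs were single pairs, on 4q, 5p, 5q, 6p, 8p, 9q, 11p, 17p, 18q and 21q. NeuPCs had 4 pairs, on 10p, 17p, 17q and 20q, and the only group of 3 or more end regions in either list. Groups away from the ends were not listed here. That group lay on 1p at chr1:565018-570301 and held 7 regions that covered 71.6% of its 5284 bp, with scores from 55.25 to 294.95 and a median of 116.51. ESCs had no region in the outermost Mb of 1p. The sequence under the group was not examined, and the part of reads with several matches in its scores was not tested.

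Within 100 kb of a NeuPC region lay 60 ESC end regions (23.2%, 18.2% to 28.8%), against 21.6% of the rest of the list and 21.8% of all autosomal ESC regions. In the NeuPC list it was 52 end regions (20.2%, 15.5% to 25.7%), against 16.7% of the rest and 17.0% of all. Both differences had intervals that included 0, at 1.55 points (-3.51 to 7.32) and 3.55 points (-1.13 to 9.05). Within 10 kb there were 7 ESC (2.70%) and 8 NeuPC (3.11%) end regions, against 2.58% and 2.02% of the rest.

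At the shortest distances the ends held most of the few close pairs. Within 1 kb of the other list lay 3 ESC end regions (1.16%) against 2 of the 2096 others (0.0954%), a difference of 1.06 points (0.259 to 3.26). The same 3 pairs seen from NeuPCs were 3 of 257 (1.17%) against 2 of 2770 (0.0722%). One pair overlapped, on 18q, where chr18:74679056-74679209 in ESCs (score 76.63) and chr18:74679066-74679215 in NeuPCs (67.07) shared 144 bp. It was the only overlap between the lists on the autosomes. The paper, comparing ESCs, NeuPCs and IMR90 fibroblasts, describes most but not all ESC and NeuPC sites as specific to their cell type. How its sites relate to the deposited lists was not tested. A second pair on 18q, chr18:77646970-77647120 (58.86) and chr18:77646829-77646929 (60.38), was 40 bp apart. The third was on 9q, chr9:136221529-136221671 (54.58) and chr9:136222295-136222415 (59.14), 623 bp apart, just inside the 5 Mb limit.

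The other pairs within 10 kb lay on 4 arms. On 4q the regions chr4:190557283-190557382 in ESCs (55.87) and chr4:190562985-190563095 in NeuPCs (61.48) were 5602 bp apart. On 5p the pair chr5:1338884-1339010 (50.66) and chr5:1345252-1345379 (57.92) was 6241 bp apart. On 10p, chr10:716081-716195 in ESCs (57.86) lay 9674 bp from chr10:706186-706406, one of the strongest NeuPC end regions (117.67). On 17p, the ESC region chr17:810050-810188 (57.19) lay 6365 and 9506 bp from the NeuPC regions chr17:803585-803684 (64.98) and chr17:800451-800543 (66.69).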

How the data were processed

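The lists hold NUP98-binding regions from 1 ESC and 1 NeuPC library. The authors sequenced the libraries on an Illumina GAII, aligned the reads and called the regions. Both deposited lists carry a score for each region, whose unit is not given. Their header names MACS, whereas the study's methods name Genomatix and an Audic-Claverie test. The version, parameters and control are not given in the sources used here. The submitters' processing notes name hg19 and GRCh37. The IMR90 list was not used.

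Coordinates are given counted from 1. Regions on chromosomes 1 to 22 were assigned to an end if they began or finished within 5 Mb of it, from known hg19 chromosome lengths. Length was counted without the acrocentric short arms up to the first region of either list. Shares carry exact Clopper-Pearson intervals, densities exact Poisson intervals, ratios the interval of the share, and differences of shares Newcombe intervals (scipy 1.17.1, numpy 2.4.6). No p-value was computed, since there was 1 library per condition, and no random placement of the real regions was drawn. Intervals cover counting error only. The calculation of the ratio was checked on simulated lists with regions placed independently. That check covers the calculation only, and says nothing of clusters or empty stretches in the real lists. Regions named are the 5 with the highest score and the outermost in each list, groups of 3 or more and ESC and NeuPC pairs within 10 kb, and the arms with the extreme counts and the largest differences in share. Other arms and regions named were chosen after their values were seen. No genome or annotation of this build was used here, so no genes were assigned and no sequence is given. The members and lists were chosen with earlier results of these data known.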

Additional observations from a re-analysis of the deposited data

Results flagged for a closer look

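The X chromosome is outside the autosomal comparison, and both lists held regions near its ends. ESCs had 6 of their 113 X regions within 5 Mb of an end (0.6 per Mb, exact Poisson interval 0.220 to 1.31, against 0.737 per Mb in the rest of X). NeuPCs had 7 of 149 (0.7 per Mb, 0.281 to 1.44, against 0.977 per Mb). Each count is above the limit of 3 that a count of 0 allows, which is what marked it, and in neither list were the X ends denser than the rest of X.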

How the results depend on the processing

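Across 9 results, 63 comparisons with another way of counting were made, of which 55 stayed on the same side of the limit or within the interval of the value reported. Differences of medians whose interval already included 0 changed sign or became 0 in 3 of these: the ESC score difference was 0.46 at 5 Mb and -0.17 at 2 Mb, and the length differences of both lists were 0 at 10 Mb. Not all 63 comparisons could move or were separate. ESCs had no group on 1p to leave out, and some arms left out in turn repeat 11p or 17q. The ESC density ratio ran from 1.47 to 1.79 and its interval stayed above 1 in each. The NeuPC ratio ran from 1.10 to 1.46, and its interval included 1 only when stretches of over 2.5 Mb with no region were left out (1.10, 0.967 to 1.25). With the distance set to 2 Mb and 10 Mb, the share near the ends was 4.88% and 20.0% in ESCs and 3.87% and 16.9% in NeuPCs. Among the 50% of the list with the highest score the NeuPC share was 9.85%. The ESC minus NeuPC difference fell to 1.79 points there (-0.552 to 4.20) and to 1.02 points at 2 Mb (-0.0762 to 2.16). The cause was not tested. Leaving out each arm in turn, an alternative chosen after seeing the data, moved the ESC ratio between 1.59 (without 11p) and 1.68, the NeuPC ratio between 1.20 (without 17q) and 1.27, and the difference between 1.93 and 2.74 points. No paired analysis was possible because there was 1 library per condition. The alternative that takes assembly gaps from a genome of the same build was not run, since no such genome was used here. Depth was not analysed, and regions under the peak caller's threshold could not be counted.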
